A study of Nicotiana tabacum with 60 samples.

Results

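The chloroplast genes *rpl23*, *rpl2*, *rps19*, *rpl22* and *rps3* open the large ribosomal protein operon of tobacco. These 5 genes, taken by name from the tables of footprints and RNA, are 5 of the 78 chloroplast genes measured, and all 5 passed the filter on low counts. Ribo-seq, which sequences the RNA fragments that ribosomes cover, gave footprints per reading frame (translation output), and RNA-seq of total RNA gave transcript accumulation. Each was done on 3 samples of 7 mutants and 3 control lines, with 60 libraries in all. The question was how translation and RNA of these genes stood in leaves in which assembly of a photosynthetic complex is disturbed.

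Δ3’-*psbD* lacks the end of *psbD* and the start of *psbC* (photosystem II), Δ*psbJ* a small photosystem II gene, and Δ*petN* a small gene of the cytochrome *b6f* complex. Δ*petB*/*D* lacks *petB*, the start of *petD* and the neighbouring *psbB*, *psbT*, *psbH* and *psbN*, and in Δ*atpB*/*E* the ATP synthase genes *atpB* and *atpE* are knocked out. All 5 are chloroplast transformants compared with pRB8c, a transformant that shares the *aadA* selection marker. Δ*psaB* carries a frameshift in the photosystem I gene *psaB* and was compared with RB70, another *aadA* control line. In the paper its samples come from 2 independent lines, the third sample being of the second line if the replicate numbers match. as-*ATPC* has an antisense construct in the nucleus against the ATP synthase gene *ATPC* and was compared with its wild type, SNN. The labels give medium with 3% sucrose for every sample, whereas the paper describes soil for as-*ATPC* and SNN. Samples within a line are described as biological replicates. By the paper's methods, tissue was taken at the stage of a seedling with 4 leaves.

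Chloroplast ribosomes are of bacterial type, and part of their proteins is made in the chloroplast itself. *rpl23* and *rpl2* encode uL23, which sits at the exit of the peptide tunnel, and uL2, near the site of peptide bond formation. *rpl22* encodes uL22, which lines the tunnel. *rps19* and *rps3* encode uS19 and uS3 of the head of the small subunit, and uS3 lies where the mRNA enters. In bacteria the corresponding genes form the S10 and spc operons. The chloroplast genes are transcribed together, processed into overlapping transcripts, and followed by *rpl16*, *rpl14* and further genes.

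In the coordinates of the deposited tables (tobacco chloroplast genome, minus strand unless stated), footprints were counted over exon sequence at 85252 to 85868 for *rps3*, 85893 to 86320 for *rpl22* and 86414 to 86652 for *rps19*. These 3 genes are in the large single-copy region. *rpl2* and *rpl23* lie in the inverted repeat, and their counts add both copies. *rpl2* has an intron, and its footprint windows cover the last exon, at 86753 to 87146 and, on the plus strand, 155464 to 155857. *rpl23* was counted at 88262 to 88503 and, on the plus strand, 154107 to 154348. Reads of the repeat copies cannot be told apart. The windows of *rpl22* and *rps3* do not overlap. For *rps3*, *rpl22*, *rps19* and *rpl23* the windows leave out 10 nt at the low-coordinate end and 30 nt at the high-coordinate end of the RefSeq reading frame. On the minus strand the 30 nt therefore lie at the start codon.

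Depth differed widely between libraries. A library held 31328 to 5331355 footprints in chloroplast frames, with a median of 978288. RNA libraries held 1029393 to 14748697 reads in them. The shallowest footprint library, replicate 1 of Δ*psaB*, held 43 *rpl23*, 99 *rpl2*, 29 *rps19*, 150 *rpl22* and 110 *rps3* footprints. All other footprint libraries held 47 or more of each member. Chloroplast reads made up 3.00% to 33.8% of mapped footprints, lowest in Δ*atpB*/*E*. The 7 green-leaf transcripts checked (*rbcL*, *psbA*, *psbD*, *psaA*, *psaB*, *petB* and *atpA*) took 51.5% to 85.9% of RNA counts. In RB70 and Δ*psaB* the RNA counts over all frames came to 0.955 to 1.14 times the reads mapped to the chloroplast, against 0.713 to 0.870 times in the other lines, and the reason was not tested. Genes named in a deletion held few footprints in their mutant (*psbD*, cut only at its end, excepted), with more in replicate 3 of 3 mutants: 695 for *psbB* in Δ*petB*/*D* (20 and 9 in the others), 245 for *atpB* in Δ*atpB*/*E* (19 and 12) and 1052 for *psbC* in Δ3’-*psbD* (238 and 152). RNA of *petD* and *atpE* was still counted in their mutants (83523 to 118479 and 55439 to 90729), in raw counts above those of pRB8c (27290 to 33710 and 30480 to 43373). In Δ*psaB* *psaB* took 2.42%, 2.65% and 6.40% of footprints against 6.63%, 7.18% and 6.83% in RB70, so that replicate 3 was near the control. By the paper, a longer first part of *psaB* is translated in the second Δ*psaB* line than in the first. Whether this accounts for the share in replicate 3 was not tested. Without replicate 3 of Δ*psaB* no member was called in footprints, RNA or efficiency there. The nuclear *ATPC* is outside these tables.

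Levels are counts as shares of a library's chloroplast frame counts on the CPM scale, with TMM factors over all 30 libraries of a readout and divided by the counted length in kilobases, of both copies for the repeat genes. They are shares of chloroplast reads, and from bulk tissue fewer cells with active chloroplasts and less RNA per cell cannot be told apart. Fold changes come from edgeR's quasi-likelihood fit of each mutant and its own control, scaled within those libraries. They differ from ratios of the levels by at most 0.38 (log2). A gene was called at a Benjamini-Hochberg adjusted p of 0.01 or less over the 77 genes tested. The median change of all genes in these fits lay between −0.15 and 0.36 in footprints and between −0.06 and 0.35 in RNA (log2). Scaled by library sizes alone it reached 1.16 and 1.27.

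**Figure D1:**
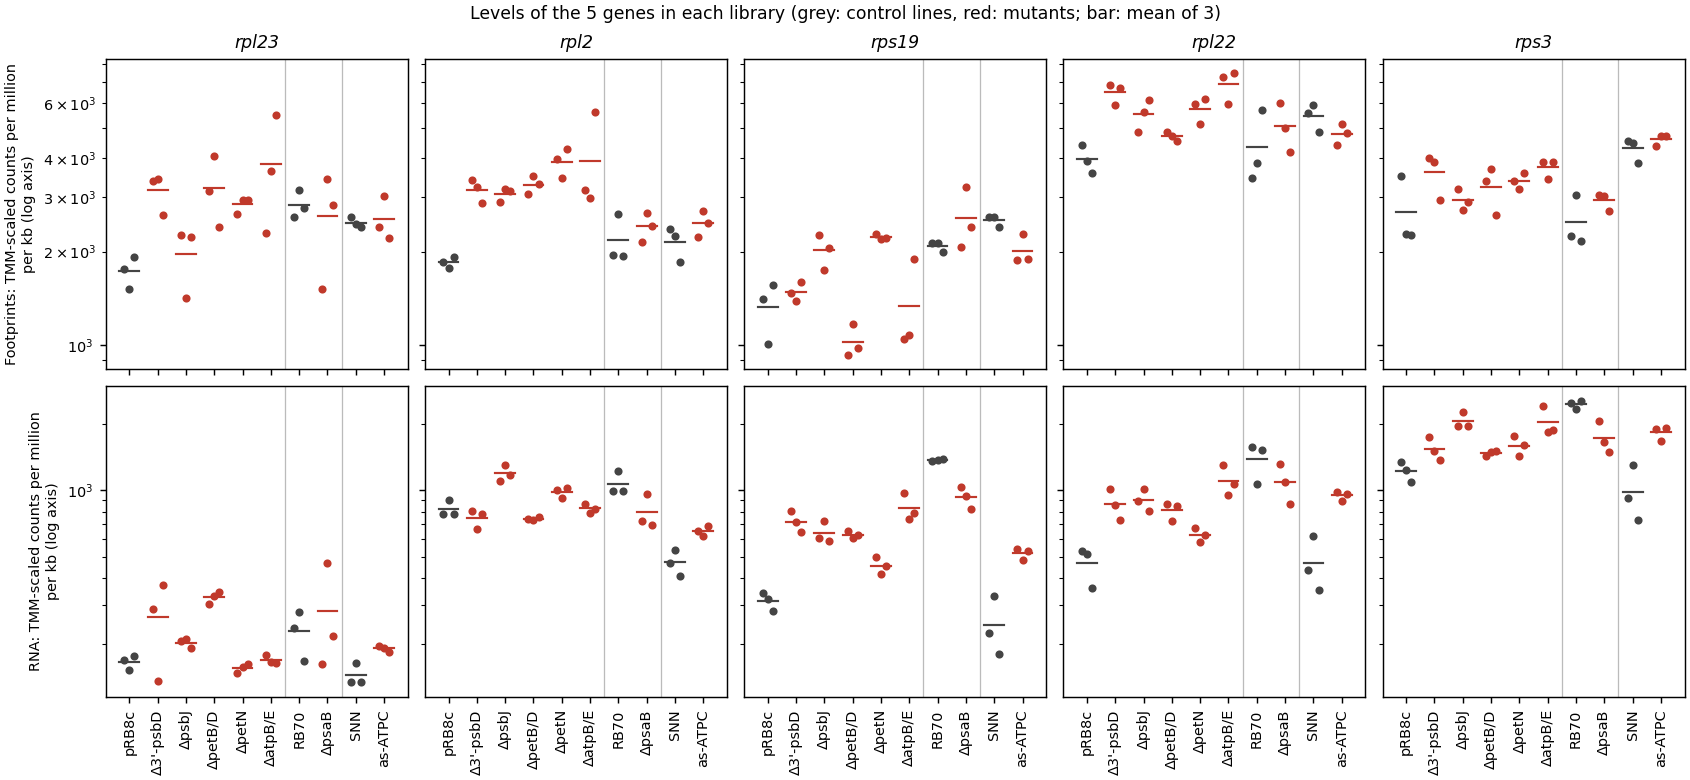
Level of each gene in each library (y axis, TMM-scaled CPM per kilobase, log scale) for footprints (upper row) and RNA (lower row). Points are single libraries, bars are means of 3, grey marks control lines and red marks mutants. The 3 pRB8c libraries lie below all 15 libraries of the 5 mutants compared with them in *rpl2* footprints.

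With edgeR and each mutant's own control, footprints of the members stood higher than in the control in 32 of 35 tests. They were called higher in 11, and none was called lower. Of the 539 footprint tests over all genes, 19.9% were called higher and 15% lower. How many of all genes stood higher, called or not, was not counted. DESeq2's Wald test and limma on RPKM called *rps19* footprints lower in as-*ATPC*, and limma called all 5 members lower in Δ*atpB*/*E*. *rpl2* was called in 6 of 7 comparisons and *rpl23* in 3, while *rpl22* and *rps3* were called in 1 each and *rps19* in none. In RNA edgeR called 19 of 35 tests higher and none lower, mostly of other members. Of the RNA tests over all genes, 32.1% were called higher and 26.2% lower. DESeq2's Wald test called 3 lower, *rpl23* and *rpl2* in Δ*atpB*/*E* (log2 change −0.35 and −0.36, DESeq2 adjusted p = 0.00469 and 0.00898) and *rps19* in Δ*psaB* (−0.45, 0.000987). *rps19*, *rpl22* and *rps3* were each called in 5 comparisons, *rpl23* in 3 and *rpl2* in 1. The 5 comparisons with pRB8c share its libraries and are not independent. Each call is a change against the chloroplast genes as a whole.

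The count of members called is read against all genes, with the percentage called in either direction in brackets. In footprints 2 of 5 members were called in Δ3’-*psbD* (all genes 24.7%), 1 in Δ*psbJ* (14.3%), 1 in Δ*petB*/*D* (31.2%), 2 in Δ*petN* (48.1%), 4 in Δ*atpB*/*E* (67.5%) and 1 in as-*ATPC* (58.4%). All these member calls were higher, and of the 77 genes 9, 6, 10, 20, 34 and 28 were called higher, in that order. In Δ*psaB* edgeR called 0 of 77 genes (0%), and 0 members at an unadjusted p under 0.05 or with DESeq2 or limma. In RNA it was 4 of 5 in Δ3’-*psbD* (68.8%), 3 in Δ*psbJ* (59.7%), 4 in Δ*petB*/*D* (62.3%), 3 in Δ*atpB*/*E* (75.3%) and 5 in as-*ATPC* (63.6%). These member calls were also all higher, and of the 77 genes 31, 26, 32, 32 and 30 were called higher, in that order. RNA of no member was called in Δ*petN* (68.8%), with 1 at an unadjusted p under 0.05, 3 with DESeq2's Wald test and 5 with limma on RPKM. In Δ*psaB* RNA edgeR called no member (9.09% of genes), with 2 at an unadjusted p under 0.05, 1 with DESeq2 and 0 with limma. The median log2 change of the 5 members in RNA ran from −0.46 in Δ*psaB* to 1.04 in Δ*petB*/*D*, and in footprints from 0.16 in as-*ATPC* to 1.17 in Δ*atpB*/*E*. The background medians in these 4 comparisons were −0.05, 0.16, 0.10 and 0.36.

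**Figure D2:**
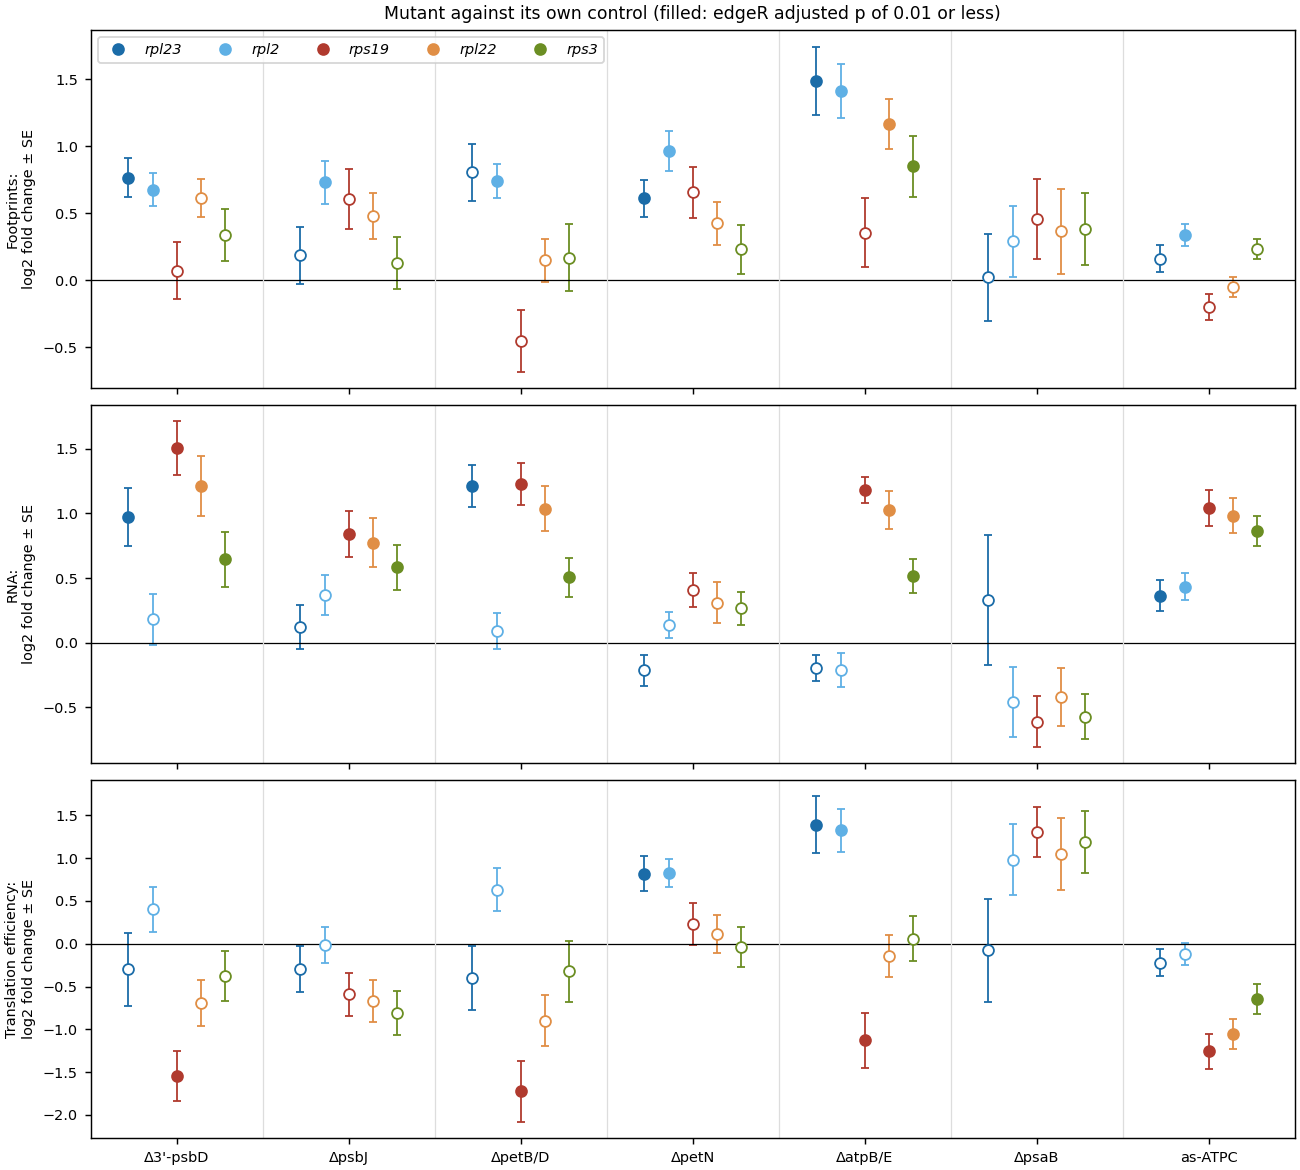
Log2 fold change of each gene (y axis, with its standard error) in each mutant against its own control for footprints, RNA and translation efficiency. Filled points have an edgeR adjusted p of 0.01 or less. Filled points are mostly *rpl23* and *rpl2* in footprints and *rps19*, *rpl22* and *rps3* in RNA.

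The large-subunit gene *rpl2* had the most regular rise in translation output. Its footprint level was 1855, 1765 and 1923 in pRB8c. It was 3393, 3217 and 2870 in Δ3’-*psbD*, 2883, 3186 and 3134 in Δ*psbJ*, and 3051, 3494 and 3290 in Δ*petB*/*D*. In Δ*petN* it was 3957, 3450 and 4260, and in Δ*atpB*/*E* 3143, 2964 and 5593. None of these 15 libraries overlapped the control. The rise was 1.60-fold in Δ3’-*psbD* (log2 change 0.68 ± 0.12, ± giving the standard error (SE), edgeR adjusted p = 0.00581), 1.66-fold in Δ*psbJ* (0.73 ± 0.16, 0.00506), and 1.67-fold in Δ*petB*/*D* (0.74 ± 0.13, 0.00308). It was 1.95-fold in Δ*petN* (0.96 ± 0.15, edgeR adjusted p = 0.000347) and 2.66-fold in Δ*atpB*/*E* (1.41 ± 0.20, 0.000163). In as-*ATPC* the level was 2235, 2709 and 2467 against 2367, 2239 and 1847 in SNN, overlapping, with a 1.26-fold rise in the fit (0.34 ± 0.08, edgeR adjusted p = 0.00175). In Δ*psaB* it was 2149, 2669 and 2415 against 1953, 2648 and 1930 in RB70 (log2 change 0.29 ± 0.26, edgeR adjusted p = 0.431). RNA of *rpl2* was not called in these lines other than as-*ATPC*. It was 781, 904 and 783 in pRB8c and 805, 665 and 784 in Δ3’-*psbD*, and over the 6 comparisons of Δ lines its log2 change was −0.46 to 0.37 (edgeR adjusted p = 0.0243 to 0.550, and 0.00898 in Δ*psbJ* without its replicate 1). It was called in as-*ATPC* (652, 622 and 686 against 467, 537 and 410, 1.35-fold, log2 change 0.43 ± 0.10, edgeR adjusted p = 0.000304). The footprint call was lost in Δ*psbJ* without any library but its own replicate 1 (edgeR adjusted p = 0.0185 to 0.0600), and in Δ3’-*psbD* without its replicate 1 or any control library (0.0230 to 0.0345). It was lost in Δ*petB*/*D* without pRB8c replicate 2 or 3 or mutant replicate 2 (0.0225, 0.0127 and 0.0138), and in as-*ATPC* without mutant replicate 1 (0.0121), and the RNA call in as-*ATPC* without mutant or control replicate 1 (0.0108 and 0.0174). Against RB70 in place of pRB8c, *rpl2* footprints were called only in Δ*atpB*/*E* (1.19), with adjusted p of 0.0144 to 0.0509 in the others, all higher.

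*rpl23*, the promoter-proximal gene, had footprint levels of 1755, 1516 and 1922 in pRB8c. They were 3375, 3429 and 2628 in Δ3’-*psbD*, 2640, 2936 and 2930 in Δ*petN*, and 2299, 3636 and 5499 in Δ*atpB*/*E*, with no overlap. In Δ*petB*/*D* they were 3138, 4061 and 2402, and in Δ*psbJ* 2266, 1414 and 2225, which overlapped the control. Translation output rose 1.70-fold in Δ3’-*psbD* (log2 change 0.77 ± 0.15, edgeR adjusted p = 0.00593), 1.53-fold in Δ*petN* (0.61 ± 0.14, 0.00360) and 2.80-fold in Δ*atpB*/*E* (1.49 ± 0.26, 0.000522). Δ*petB*/*D* had a log2 change of 0.80 (SE 0.21, edgeR adjusted p = 0.0187). In Δ*psbJ*, Δ*psaB* and as-*ATPC* it was 0.19, 0.02 and 0.16, with edgeR adjusted p of 0.147 to 0.970. RNA of *rpl23* was the lowest per kilobase of the 5 genes in every line, with 170, 152 and 176 in pRB8c. It rose in Δ*petB*/*D* (304, 330 and 347, 2.32-fold, log2 change 1.21 ± 0.16, edgeR adjusted p = 6.04e-08) and in as-*ATPC* (197, 192 and 185 against 134, 164 and 135, 1.29-fold, 0.36 ± 0.12, 0.00741). In Δ3’-*psbD* it was called as well (1.96-fold, 0.97 ± 0.23, edgeR adjusted p = 0.000149), but its libraries of 288, 137 and 370 lie on both sides of the control. Leaving out any library but Δ3’-*psbD* replicate 3 ended the footprint call there (edgeR adjusted p = 0.0115 to 0.0345). The RNA call in Δ3’-*psbD* ended without its replicate 1 or 3 (0.0538 and 0.0164) or pRB8c replicate 2 (0.0142). The footprint call in Δ*petN* ended without pRB8c replicate 1 or 2 (0.0139 and 0.0193), and turned to −0.11 against RB70. In Δ*atpB*/*E* it ended without mutant replicate 2 (0.0149), and without replicate 3 it was 0.92, against 1.49 with it. In Δ*petB*/*D* *rpl23* footprints were called without replicate 3, the library with *psbB* footprints (1.04, 0.00140). The RNA call in as-*ATPC* ended without any library but SNN replicate 2 (0.0233 to 0.0401).

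*rpl22* had the highest footprint level per kilobase of the 5 genes in every line, with 4411, 3901 and 3585 in pRB8c. In Δ*atpB*/*E* it was 7274, 5956 and 7477, a 2.24-fold rise (log2 change 1.17 ± 0.19, edgeR adjusted p = 0.000350). In Δ3’-*psbD* it was 6861, 5928 and 6685, without overlap, but with an edgeR adjusted p of 0.0128 (log2 change 0.62 ± 0.14). The other 5 comparisons gave −0.05 to 0.48, with edgeR adjusted p of 0.0399 to 0.564. RNA of *rpl22* was 528, 512 and 360 in pRB8c. It was 1014, 856 and 732 in Δ3’-*psbD*, 895, 1014 and 806 in Δ*psbJ*, 871, 729 and 848 in Δ*petB*/*D* and 1300, 958 and 1068 in Δ*atpB*/*E*, all above the control. It rose 2.32-fold (log2 change 1.21 ± 0.23, edgeR adjusted p = 6.63e-06), 1.71-fold (0.77 ± 0.19, 0.000124), 2.05-fold (1.04 ± 0.18, 5.15e-06) and 2.03-fold (1.02 ± 0.14, 0.000121), in that order. In as-*ATPC* RNA was 983, 897 and 967 against 435, 622 and 352 in SNN (1.98-fold, 0.98 ± 0.13, edgeR adjusted p = 2.51e-08). Footprints there were 4408, 5152 and 4794 against 5578, 5914 and 4857. The 6 calls of *rpl22* held without each library in turn. Footprints in Δ*petN* (0.43, 0.0399) were called without mutant replicate 2 (0.59, edgeR adjusted p = 0.00687).

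The small-subunit gene *rps19* was called higher in RNA in 5 comparisons, with the largest edgeR estimate of the 5 genes in each, and edgeR called it in no footprint comparison. Its RNA level was 343, 320 and 284 in pRB8c. It was 804, 716 and 645 in Δ3’-*psbD*, 607, 729 and 588 in Δ*psbJ*, 655, 607 and 628 in Δ*petB*/*D*, and 978, 738 and 791 in Δ*atpB*/*E*. Every one of these libraries exceeded the highest control. RNA rose 2.83-fold in Δ3’-*psbD* (log2 change 1.5 ± 0.21, edgeR adjusted p = 4.75e-09), 1.79-fold in Δ*psbJ* (0.84 ± 0.18, 8.24e-06), 2.34-fold in Δ*petB*/*D* (1.23 ± 0.16, 6.28e-08) and 2.26-fold in Δ*atpB*/*E* (1.18 ± 0.10, 1.12e-05). In as-*ATPC* it was 539, 483 and 530 against 226, 330 and 181 in SNN, also without overlap (2.06-fold, 1.04 ± 0.14, edgeR adjusted p = 1.69e-08). These 5 calls held without each library in turn. Δ*petN*, at 499, 415 and 453, had a log2 change of 0.41 (SE 0.13, edgeR adjusted p = 0.0140), which was called without its replicate 2 (0.64, 0.00494). *rps19* footprints were 1410, 1009 and 1566 in pRB8c. They were 1472, 1384 and 1598 in Δ3’-*psbD*, 930, 1175 and 981 in Δ*petB*/*D*, and 1049, 1078 and 1891 in Δ*atpB*/*E*, all overlapping the control. In Δ*petN* they were 2283, 2192 and 2213, without overlap (log2 change 0.66 ± 0.19, edgeR adjusted p = 0.0122, and 0.00856 without pRB8c replicate 3). DESeq2's Wald test called this rise (0.59, adjusted p = 0.00752). In as-*ATPC* *rps19* footprints were 1876, 2271 and 1887, below all 3 SNN libraries at 2584, 2591 and 2393. The log2 change there was −0.20 ± 0.10 (edgeR adjusted p = 0.0815), and it was called lower by DESeq2's Wald test (−0.29, adjusted p = 0.00246) and by limma on log2(RPKM + 1) (−0.26, 0.00585). Against RB70 the gene was called lower in Δ*petB*/*D* (−1.04, edgeR adjusted p = 0.00513). With their own controls the 6 comparisons other than Δ*petN* gave −0.45 to 0.61, with edgeR adjusted p of 0.0558 to 0.776.

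*rps3* was called in 5 RNA comparisons and in 1 of footprints. Its footprint level was 3503, 2277 and 2267 in pRB8c and 3884, 3421 and 3883 in Δ*atpB*/*E*, the comparison in which it was called (1.80-fold, log2 change 0.85 ± 0.23, edgeR adjusted p = 0.00673). The levels overlap there, and the call was lost without any library but pRB8c replicate 1 (edgeR adjusted p = 0.0141 to 0.0476). In as-*ATPC* the footprint level was 4356, 4694 and 4694 against 4546, 4467 and 3856 (log2 change 0.24 ± 0.08, edgeR adjusted p = 0.0114, and 0.00142 without mutant replicate 2). RNA of *rps3* was 1343, 1237 and 1091 in pRB8c and higher in each library of the 5 mutants compared with it, from 1378 to 2425. It rose 1.56-fold in Δ3’-*psbD* (log2 change 0.64 ± 0.21, edgeR adjusted p = 0.00553), 1.5-fold in Δ*psbJ* (0.58 ± 0.17, 0.00144), 1.42-fold in Δ*petB*/*D* (0.50 ± 0.15, 0.00366) and 1.43-fold in Δ*atpB*/*E* (0.52 ± 0.13, 0.00470). In as-*ATPC* it was 1908, 1677 and 1924 against 923, 1309 and 733 (1.82-fold, 0.86 ± 0.12, edgeR adjusted p = 2.51e-08). The as-*ATPC* call held without each library. The RNA calls of the other 4 mutants were lost when some single libraries were left out. In Δ*psbJ* the call ended without pRB8c replicate 1 or 3 (edgeR adjusted p = 0.0142 and 0.0197). In Δ3’-*psbD* it held only without mutant replicate 2 or 3, in Δ*petB*/*D* only without mutant replicate 2, and in Δ*atpB*/*E* only without mutant replicate 1 (0.0128 to 0.0462 otherwise). In Δ*petN* *rps3* RNA was called without mutant replicate 2 (0.51, 0.00517, against 0.27 with it).

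The mutant footprint libraries of replicate 3 that held footprints of deleted genes were left out in turn. In Δ3’-*psbD* *rpl23* and *rpl2* were then at 0.90 and 0.77 (log2, edgeR adjusted p = 0.000805 and 0.00157), and in Δ*petB*/*D* at 1.04 and 0.81 (0.00140 and 0.00243). In Δ*atpB*/*E* the footprint changes were smaller without it, at 0.92 for *rpl23*, 0.88 for *rpl2*, 0.89 for *rpl22* and 0.60 for *rps3*, and *rps19* went from 0.36 to −0.17, neither called. Efficiency of *rps19* was at −1.52 in Δ3’-*psbD*, −1.58 in Δ*petB*/*D* and −1.36 in Δ*atpB*/*E* without these libraries, all still called lower. In Δ*psaB* no member was called in footprints, RNA or efficiency without replicate 1.

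Translation efficiency, tested as the difference between the footprint change and the RNA change in a single model, was called lower most often for *rps19*. It fell 2.91-fold in Δ3’-*psbD* (log2 −1.54 ± 0.29, edgeR adjusted p = 0.00239), 3.31-fold in Δ*petB*/*D* (−1.73 ± 0.35, 0.00261), 2.18-fold in Δ*atpB*/*E* (−1.13 ± 0.32, 0.00677) and 2.39-fold in as-*ATPC* (−1.26 ± 0.20, 3.48e-05). In as-*ATPC* that of *rpl22* fell 2.08-fold (−1.05 ± 0.18, edgeR adjusted p = 5.27e-05) and that of *rps3* 1.57-fold (−0.65 ± 0.18, 0.00349). Efficiency of the repeat genes rose in 2 lines: in Δ*petN* 1.77-fold for both *rpl23* (0.82 ± 0.21, edgeR adjusted p = 0.00336) and *rpl2* (0.82 ± 0.16, 0.000638). In Δ*atpB*/*E* the rise was 2.62-fold for *rpl23* (1.39 ± 0.33, edgeR adjusted p = 0.00200) and 2.50-fold for *rpl2* (1.32 ± 0.26, 0.000354). Against RB70 these 4 calls were lost. In Δ*petN* *rpl23* and *rpl2* were then at 0.41 and 0.79 (edgeR adjusted p = 0.264 and 0.0199), and *rps19* and *rpl22* were called higher (1.54 and 1.43). By line, 1 member of 5 was called in Δ3’-*psbD* (all genes 16.9%), 1 in Δ*petB*/*D* (16.9%), 2 in Δ*petN* (44.2%), 3 in Δ*atpB*/*E* (37.7%) and 3 in as-*ATPC* (41.6%). In Δ*psbJ* edgeR called 0 (35.1% of genes), with 3 at an unadjusted p under 0.05 and 0 with DESeq2 or limma. In Δ*psaB* edgeR called 0 of 77 genes (0%), with 4 members at an unadjusted p under 0.05 and 0 with DESeq2 or limma. The median log2 efficiency change of all genes was −0.34 in Δ3’-*psbD*, −0.34 in Δ*psbJ*, −0.31 in Δ*petB*/*D* and 0.23 in Δ*petN*. It was 0.16 in Δ*atpB*/*E*, −0.03 in as-*ATPC* and 0.62 in Δ*psaB*. Without Δ*psaB* footprint replicate 1 the efficiency of *rps19* there moved from 1.31 to 0.70 and of *rpl22* from 1.05 to 0.14. The call of *rps19* in Δ3’-*psbD* ended without RNA replicate 2 of pRB8c (edgeR adjusted p = 0.0115), and in Δ*atpB*/*E* without any of 7 of the 12 libraries (0.0137 to 0.0210), namely pRB8c footprint replicates 1 and 3, every pRB8c RNA replicate and mutant RNA replicates 1 and 3. That of *rpl23* in Δ*petN* ended without mutant RNA replicate 1 or 3 (0.0153 and 0.0106), and that of *rps3* in as-*ATPC* without mutant footprint replicate 2 (0.0172). *rps3* in Δ*psbJ* was called without pRB8c footprint replicate 3 or mutant footprint replicate 1 (−0.94 and −0.91, 0.00455 and 0.00787), and *rpl22* in Δ*petB*/*D* (−0.90, 0.0342) without pRB8c footprint replicate 3, pRB8c RNA replicate 1 or mutant RNA replicate 2 (0.00429, 0.00731 and 0.00511).

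Shares of the summed per-kilobase level of the 5 genes within a library do not depend on scaling between libraries. *rps19* had 10.8%, 10.2% and 10.5% of that sum in RNA of pRB8c. It had 17.3%, 18.5% and 16.5% in Δ3’-*psbD*, 16.3%, 15.6% and 15.4% in Δ*petB*/*D*, and 17%, 16.4% and 16.7% in Δ*atpB*/*E*. In footprints its share in these 3 lines went the other way, from 10.9%, 9.63% and 13.9% in pRB8c to 7.72%, 7.76% and 9.56% in Δ3’-*psbD*, 6.07%, 6.87% and 7.09% in Δ*petB*/*D* and 5.94%, 6.32% and 7.77% in Δ*atpB*/*E*. In as-*ATPC* it had 12.6%, 12.5% and 12.4% of RNA against 10.3%, 11.1% and 10% in SNN, and 12.3%, 12.7% and 11.8% of footprints against 14.6%, 14.7% and 15.6%. None of these groups overlap. In Δ*psbJ* and Δ*petN* the RNA share was also above pRB8c (12.7%, 13.2% and 12.5%, and 12.2%, 11.8% and 11.7%), but the footprint share was not lower, at 14.6%, 11.9% and 12.5% and at 12.5%, 13% and 11.6%, overlapping the control. *rps19* was singled out here after its values were seen, and these shares were not tested.

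The 5 genes were also compared by location. Within each library the summed per-kilobase counts of *rps19*, *rpl22* and *rps3*, the single-copy genes, were divided by those of *rpl23* and *rpl2*, the repeat genes. In RNA this log2 ratio was 1.22, 0.97 and 0.85 in pRB8c. It was 1.70, 1.94 and 1.25 in Δ3’-*psbD*, 1.41, 1.40 and 1.29 in Δ*psbJ*, 1.5, 1.41 and 1.43 in Δ*petB*/*D* and 2.16, 1.89 and 1.92 in Δ*atpB*/*E*, all above the control. Δ*petN*, at 1.36, 1.17 and 1.17, overlapped it. In as-*ATPC* it was 2.02, 1.91 and 1.97 against 1.40, 1.69 and 1.22 in SNN. The ratio was thus higher by 0.62 (SE 0.23), 0.35 (SE 0.11), 0.43 (SE 0.11) and 0.98 (SE 0.14) in the first 4 mutants and by 0.53 (SE 0.14) in as-*ATPC*. For each the two-sided exact permutation p was 0.1, the smallest that 3 against 3 samples allow, and 0.14 after adjustment over the 7 comparisons. Δ*petN* was higher by 0.22 (SE 0.12, exact permutation p = 0.3). In footprints the ratio was lower than in the control in all mutants but Δ*psaB*. It was 0.56, 0.34 and 0.52 in Δ*petB*/*D* and 0.82, 0.72 and 0.73 in Δ*petN*, against 1.37, 1.13 and 0.95 in pRB8c, and 1.2, 1.08 and 1.28 in as-*ATPC* against 1.36, 1.47 and 1.39 in SNN. The differences of −0.68 (SE 0.14), −0.39 (SE 0.13) and −0.22 (SE 0.07) each had the smallest exact permutation p of 0.1 (adjusted 0.233). Δ3’-*psbD*, Δ*psbJ* and Δ*atpB*/*E* overlapped the control (−0.27, −0.09 and −0.45, exact permutation p = 0.2, 0.7 and 0.3). Without footprint replicate 3 of Δ*atpB*/*E* its difference was −0.23. In Δ*psaB* the ratio in footprints was 1.60, 0.88 and 0.82 against 0.79, 0.64 and 1.07 in RB70, and the difference of 0.27 fell to 0.02 without its replicate 1. For RNA in Δ*psaB* it was −0.19 (exact permutation p = 0.7). The ratio is one of sums, and RNA of the single genes did not separate by location. In Δ*petB*/*D* *rpl23* RNA was at 1.21, near *rps19* at 1.23 and above *rpl22* at 1.04 and *rps3* at 0.50, and in Δ3’-*psbD* at 0.97 against 0.64 for *rps3*.

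**Figure D3:**
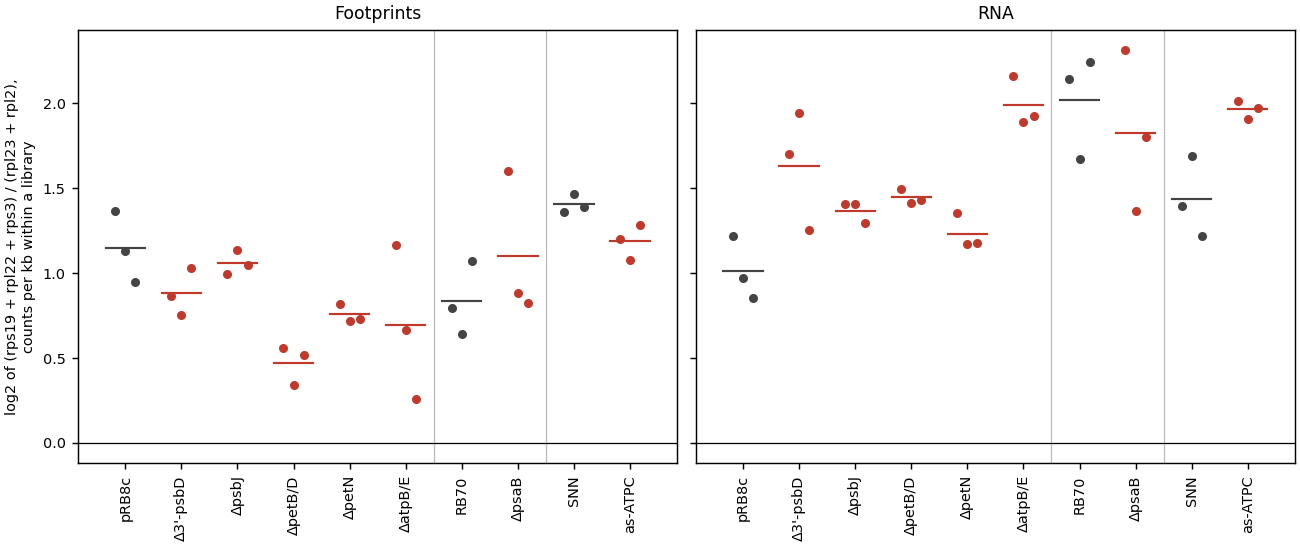
Log2 ratio of the summed per-kilobase counts of *rps19*, *rpl22* and *rps3* to those of *rpl23* and *rpl2* (y axis) in each library, for footprints and RNA. Points are libraries, bars means of 3, grey control lines, red mutants. Relative to pRB8c and SNN the red points lie mostly lower in footprints and higher in RNA, and RB70 (RNA mean 2.02) lies above pRB8c (1.01).

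The RNA results depend on the control line. RNA of *rps19* in RB70 was 1354, 1374 and 1395, above every other line, against 316 (SD 30, n = 3) in pRB8c. That of *rpl22* was 1582, 1068 and 1529, and that of *rps3* 2498, 2350 and 2562. With RB70 in place of pRB8c, *rps19* RNA was lower in all 5 mutants, by −0.19 to −1.37 (log2), and the ratio of single-copy to repeat genes in RNA was lower in all 5, by −0.03 to −0.79. Efficiency of *rps19* was then not called lower in any of them, at −0.17 to 1.54. The mean footprint level of *rps19* was 2087 in RB70 and 1328 in pRB8c. RNA of RB70 and Δ*psaB* relates to the chloroplast reads as given above, and its part in this difference was not tested. The comparison of as-*ATPC* with SNN uses neither line. In Δ*psaB* itself RNA of *rps19* was 1039, 946 and 820 (log2 change −0.61 ± 0.19, edgeR adjusted p = 0.0576) and that of *rps3* 2060, 1655 and 1500 (−0.57 ± 0.17, 0.0546). *rps3* footprints were 3050, 3023 and 2690 against 2252, 3032 and 2159 (0.38 ± 0.27, 0.334).

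Scaled instead to all reads mapped to the 3 genomes, as RPKM, which also counts the change in chloroplast reads, translation output of all 5 genes was lower in Δ*atpB*/*E*, with changes of −1.57 (*rpl23*), −1.61 (*rpl2*), −2.62 (*rps19*), −1.84 (*rpl22*) and −2.13 (*rps3*) on the log2(RPKM + 1) scale in limma. The median of all genes was −2.62 there. The rises reported above are therefore relative to the chloroplast pool of footprints. In Δ3’-*psbD* *rpl23* and *rpl2* were at −0.37 and −0.46 on that scale, with a median of all genes of −1.10.

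Along the 5 genes, RNA was lowest at *rpl23* and highest at *rps3* in pRB8c, with a dip at *rps19*, while footprints peaked at *rpl22*. Mean RNA per kilobase in pRB8c was 166 for *rpl23*, 823 for *rpl2*, 316 for *rps19*, 467 for *rpl22* and 1224 for *rps3*. Mean footprints were 1731, 1848, 1328, 3966 and 2682 in the same order. Footprints per RNA on these scales were 10.4 for *rpl23* and 8.50 for *rpl22*, against 2.25 for *rpl2*, 4.21 for *rps19* and 2.19 for *rps3*. *rps19* went to 2.06 in Δ3’-*psbD*, 1.63 in Δ*petB*/*D* and 1.60 in Δ*atpB*/*E*, and from 10.3 in SNN to 3.89 in as-*ATPC*. Only the last exon of *rpl2* was counted for footprints but its whole coding length for RNA, so its ratio is less comparable.

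**Figure D4:**
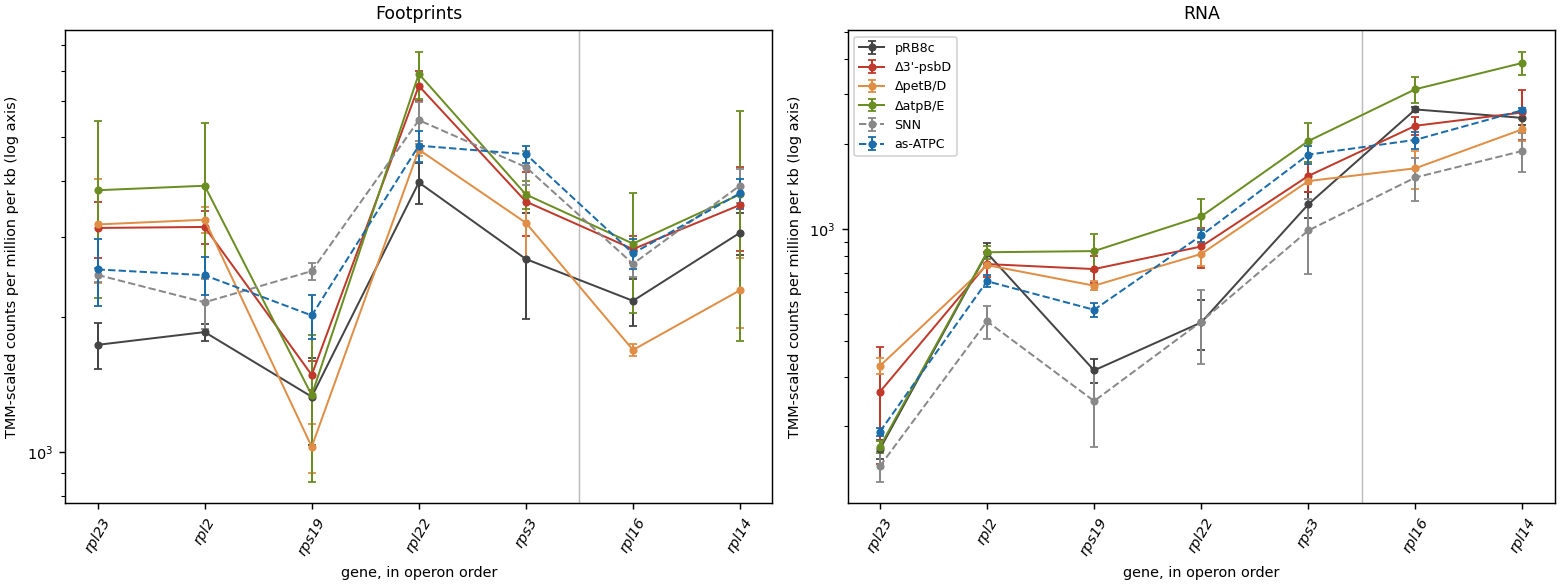
Mean level (y axis, TMM-scaled CPM per kilobase, log scale, bars are SD of 3) along the operon from *rpl23* to *rpl14* (x axis, gene order) in 6 lines, for footprints and RNA. The grey line marks the end of the 5 genes at *rps3*. At *rps19* Δ*petB*/*D* lies above pRB8c in RNA (630 against 316) and below it in footprints (1029 against 1328).

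Ordered by level, neighbouring lines mostly could not be separated. Of 9 pairs of neighbours the ranges overlapped in 8 for *rpl23* and *rpl2* footprints, 6 for *rps19* and all 9 for *rpl22* and *rps3*. The highest and lowest line means of footprints differed 2.20-fold for *rpl23* (Δ*atpB*/*E* and pRB8c), 2.11-fold for *rpl2* (Δ*atpB*/*E* and pRB8c), 2.50-fold for *rps19* (Δ*psaB* and Δ*petB*/*D*), 1.74-fold for *rpl22* (Δ*atpB*/*E* and pRB8c) and 1.85-fold for *rps3* (as-*ATPC* and RB70). In RNA the spread was widest for *rps19*, 5.59-fold between RB70 and SNN, and 2.27-fold to 2.99-fold for the others. Over the 10 line means, RNA of *rps19*, *rpl22* and *rps3* varied together (Pearson r of log2 levels 0.95 for *rps19* and *rpl22*, 0.87 for *rps19* and *rps3*, and 0.91 for *rpl22* and *rps3*). That of *rpl23* and *rpl2* had r = 0.18. In footprints *rps19* had r of −0.27 to 0.11 with the other 4. These values are descriptions over lines whose genes share libraries, with no test.

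Outside the operon, the other 3 large-subunit genes were called higher in 7 of 21 footprint tests and the other 8 small-subunit genes in 21 of 56, with none lower. Over all genes 19.9% of the 539 footprint tests were called higher and 15% lower, and of the RNA tests 32.1% and 26.2%. RNA of both lists was called higher in 12 of 21 and 27 of 56 tests and lower in 1 and 8. The polymerase genes *rpoB*, *rpoC1* and *rpoC2* were called higher in 12 of 21 footprint and 17 of 21 RNA tests. The 33 photosynthesis genes were called lower in 54 and higher in 12 of 231 footprint tests, and in RNA lower in 113 and higher in 20. They include genes deleted or cut in these mutants, such as *psbB* in Δ*petB*/*D* and *atpB* in Δ*atpB*/*E*. These were not taken out of the counts, so part of the lower calls follows from the constructs. The 11 NDH genes were higher in 10 and lower in 19 of 77 footprint tests, and in RNA 26 and 10. The comparisons share the pRB8c libraries, and these counts are given as a description.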

How the data were processed

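Ribo-seq and RNA-seq of 10 tobacco lines (3 samples each) were taken from tables of chloroplast genes. The authors trimmed reads with cutadapt and mapped them with STAR 2.7.1a, and the submitters' processing notes also name FastQC, SAMtools and bedtools. Footprint counts per reading frame are whole numbers as deposited by the authors, with the ends of each frame left out and only the last exon counted in genes with introns. RNA values as deposited are estimated counts, not whole for some genes of the inverted repeat, and were rounded to whole numbers before testing. The authors also deposited RPKM. Deposited RPKM of SNN and as-*ATPC* do not follow from their counts, so RPKM were computed here from counts, lengths and reads mapped to all 3 genomes. Columns of per-sample values not used numbered 0. Use of strand in counting is not stated in the sources used here.

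The main test was the quasi-likelihood test of edgeR 4.0.16 (R 4.3.3) with TMM factors within the libraries compared, on genes with at least 10 counts in at least 3 of them (77 of 78), with Benjamini-Hochberg adjustment over all genes. Efficiency was the interaction of library type and line. The code was tested on simulated counts. Alternatives were other scalings, DESeq2 1.42.0, limma 3.58.1 on log2(RPKM + 1) or log2(RPKM + 0.1), other filters, all lines in 1 fit, a replicate block, the other transplastomic control line, each library left out, and a threshold of 0.05. The 5 members and the gene lists were chosen with earlier results of these data known. The genes named are all members. The rule also named the 3 genes most correlated with them over line means, and these and the list of downstream operon genes are not reported here. All 60 pairs of replicates differed beyond counting noise. p-values measure the spread between samples. Same-numbered samples deviated together (every correlation over 0.1) in 2 of 14 sets, RNA of Δ3’-*psbD* and of Δ*psaB*, where the numbers were taken as pairs from this check and not from the labels. The main fits and the permutation tests did not use these pairs, which entered only through the replicate block. The nuclear *ATPC* gene was not analysed here.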

Additional observations from a re-analysis of the deposited data

How the results depend on the processing

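The counts of members called were unchanged with a filter of at least 100 counts. With no filter the RNA count in as-*ATPC* went from 5 to 4, as *rpl23* lost its call. With TMM factors computed without the genes disrupted in the mutants, that in Δ*petB*/*D* went from 4 to 3, as *rps3* lost its call. All other counts in these settings were unchanged. The ratio of single-copy to repeat genes kept its direction with raw counts summed. The filter of 100 counts left no value for *rps19* footprints in Δ*psaB*. For single genes, 104 of 105 calls were unchanged without a filter and 765 of 840 without single libraries, where 63 lost and 12 gained a call and 25 uncalled values changed sign. The cause of the changes below was not tested.

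The number of the 5 members called in footprints, 2 in Δ3’-*psbD*, 1 in Δ*psbJ*, 1 in Δ*petB*/*D*, 2 in Δ*petN*, 4 in Δ*atpB*/*E* and 1 in as-*ATPC*, ranged without single libraries over 0 to 2, 0 to 1, 0 to 2, 1 to 3, 2 to 4 and 0 to 2. With an adjusted p of 0.05 it was 2 in Δ*petB*/*D*, 4 in Δ*petN* and 2 in as-*ATPC*. With library sizes alone it was 5 in Δ3’-*psbD*, 4 in Δ*petB*/*D*, 5 in Δ*petN* and 2 in as-*ATPC*, with DESeq2's Wald test 2 in Δ*petB*/*D* and in as-*ATPC*, and with its size factors 0 in as-*ATPC*. TMM without ribosomal protein genes gave 4 in Δ*petN*. limma on log2(RPKM + 1) and on log2(RPKM + 0.1) gave 0 in Δ3’-*psbD*, Δ*psbJ* and Δ*petB*/*D*, and 1 and 0 in Δ*petN*. With all lines in 1 fit it was 2 in Δ*petB*/*D* and 0 in as-*ATPC*. That fit also ended the *rpl23* call in Δ*petN* and, like DESeq2's Wald test, the *rps3* call in Δ*atpB*/*E*. With the other control line the count was 0 in Δ3’-*psbD*, Δ*psbJ* and Δ*petN* and 2 in Δ*atpB*/*E*. In Δ*petB*/*D* it stayed at 1 but *rpl2* lost its call (0.58) and *rps19* was called lower (−1.04), and in as-*ATPC* limma gave 1, *rps19* lower in place of *rpl2* higher.

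In RNA the counts of 4, 3, 0, 3, 0 and 5 in Δ3’-*psbD*, Δ*psbJ*, Δ*petN*, Δ*atpB*/*E*, Δ*psaB* and as-*ATPC* changed as follows. Without single libraries they ranged over 2 to 4 in Δ3’-*psbD*, 0 to 2 in Δ*petN* and 3 to 5 in as-*ATPC*. An adjusted p of 0.05 gave 1 in Δ*petN*, and library sizes alone gave 5 in Δ3’-*psbD*, Δ*psbJ*, Δ*petN* and Δ*atpB*/*E*. DESeq2 size factors gave 2 in Δ3’-*psbD* and 1 in Δ*petN*, its Wald test 2 in Δ3’-*psbD*, 3 in Δ*petN* and 1 in Δ*psaB*, and TMM without ribosomal protein genes 1 in Δ*petN*. DESeq2 size factors also ended the *rps3* call in Δ*psbJ*, Δ*petB*/*D* and Δ*atpB*/*E* and the *rpl23* call in as-*ATPC*. limma gave 5 in Δ*psbJ* and Δ*petN* with both pseudocounts. All lines in 1 fit gave 2 in Δ3’-*psbD*, 4 in Δ*psbJ*, 1 in Δ*petN*, 1 in Δ*psaB* and 3 in as-*ATPC*. That fit also ended the *rps3* call in Δ*petB*/*D*. The other control line gave 0 in Δ3’-*psbD*, 2 in Δ*petN*, 0 in Δ*atpB*/*E* and 2 in Δ*psaB*, and its calls in Δ*psbJ* (2), Δ*petB*/*D* (3) and Δ*petN* were all lower. DESeq2's Wald test gave 4 in Δ*atpB*/*E*, 2 of them lower (*rpl23* and *rpl2*).

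For translation efficiency the counts were 1 in Δ3’-*psbD*, 0 in Δ*psbJ*, 1 in Δ*petB*/*D*, 2 in Δ*petN*, 3 in Δ*atpB*/*E*, 0 in Δ*psaB* and 3 in as-*ATPC*. Without single libraries they ranged over 0 to 1 in Δ3’-*psbD* and Δ*psbJ*, and 1 to 2 in Δ*petB*/*D* and Δ*petN*. An adjusted p of 0.05 gave 2 in Δ*psbJ*, Δ*petB*/*D* and Δ*psaB*. Library sizes alone gave 0 in Δ3’-*psbD* and 1 in Δ*psbJ*, Δ*petN* and Δ*atpB*/*E*. DESeq2 size factors gave 2 in Δ*petB*/*D* and 1 in Δ*petN*, its Wald test 2 in Δ3’-*psbD* and 3 in Δ*petB*/*D*, and TMM without ribosomal protein genes 0 in Δ*petN*. TMM without ribosomal protein genes also ended the *rps19* call in Δ*atpB*/*E*. limma gave 3 in Δ3’-*psbD*, 3 in Δ*petB*/*D*, 0 in Δ*petN* and 5 in Δ*atpB*/*E* with both pseudocounts. All lines in 1 fit gave 2 in Δ*petB*/*D*, 0 in Δ*petN*, 2 in Δ*psaB* and 1 in as-*ATPC*. The other control line gave 0 in Δ3’-*psbD*, 2 in Δ*psbJ*, 2 in Δ*petB*/*D* and 0 in Δ*atpB*/*E*. In Δ*petN* it gave 2, but *rps19* and *rpl22* higher in place of *rpl23* and *rpl2*. In Δ*petB*/*D* library sizes alone gave 1, *rpl2* higher in place of *rps19* lower.

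Same-numbered samples share only a number outside RNA of Δ3’-*psbD* and Δ*psaB*. With the replicate block the footprint count was 0 in Δ3’-*psbD* and in Δ*petB*/*D* and 1 in Δ*petN*, and the block moved no other count beyond 1.5 times. It ended the call of a single gene in 5 of 105 cases and left the 4 and 0 members called in RNA of Δ3’-*psbD* and Δ*psaB*.

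Some log2 changes turned sign. Library sizes alone gave 0.60 for *rpl23* RNA in Δ*petN*, and 0.95 for *rpl23* and 0.93 for *rpl2* RNA in Δ*atpB*/*E*. limma on log2(RPKM + 1), with log2(RPKM + 0.1) second, gave in Δ3’-*psbD* footprints −0.37 and −0.37 for *rpl23* and −0.46 and −0.46 for *rpl2*. In Δ*atpB*/*E* footprints it gave −1.57 and −1.59 for *rpl23*, −1.61 and −1.63 for *rpl2*, −2.62 and −2.66 for *rps19*, −1.84 and −1.84 for *rpl22* and −2.13 and −2.14 for *rps3*. It gave 0.64 and 0.65 for *rpl23* RNA in Δ*petN*. Efficiency there was −0.13 and −0.14 for *rpl23* and −0.13 and −0.13 for *rpl2*, and in Δ*atpB*/*E* −1.70 and −1.71 for *rpl23*, −1.72 and −1.73 for *rpl2* and −2.96 and −2.97 for *rps3*.

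The other control line gave −0.11 for *rpl23* footprints in Δ*petN*. For RNA of *rps19*, *rpl22* and *rps3* it gave −0.37, −0.12 and −0.12 in Δ3’-*psbD*, −1.13, −0.66 and −0.29 in Δ*psbJ*, and −0.99, −0.63 and −0.61 in Δ*petB*/*D*. RNA of *rps19* and *rpl22* was −1.37 and −0.92 in Δ*petN* and 1.57 and 1.22 in Δ*psaB*, and *rps19* was −0.19 in Δ*atpB*/*E*. Efficiency was 0.061 for *rps19* in Δ3’-*psbD*, 1.28 for *rps19* and 1.2 for *rpl22* in Δ*psbJ*, and 1.00 for *rps3* in Δ*petB*/*D*. The ratio of single-copy to repeat genes became 0.047, 0.23 and −0.047 in footprints of Δ3’-*psbD*, Δ*psbJ* and Δ*psaB*. In RNA it became −0.39 in Δ3’-*psbD*, −0.65 in Δ*psbJ*, −0.57 in Δ*petB*/*D*, −0.79 in Δ*petN*, −0.026 in Δ*atpB*/*E* and 0.81 in Δ*psaB*. Without single libraries the ratio ranged from −0.19 to 0.020 in Δ*psbJ* footprints and from −0.44 to 0.040 in Δ*psaB* RNA.

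Footprint depth limits Δ*psaB* and Δ*atpB*/*E* most. With 3 samples a line, misses of the threshold do not show that levels were alike. Where as-*ATPC* and SNN are set against the other lines, effects of line and of growth condition cannot be told apart in these bulk samples.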
